A study of Homo sapiens with 10 samples.

Results

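The sites described here are ERG peaks of VCaP cells that were also called in RWPE1 cells carrying ERG. VCaP is a human prostate cancer line and RWPE1 a line derived from normal prostate. The members were chosen by the peak positions of the 4 ERG lists: a VCaP ERG peak became a site of both lines when it shared 1 bp or more with a peak in at least 1 of the 3 RWPE1 ERG lists. This held for 304 of 7712 VCaP ERG peaks, or 3.94% (exact 95% binomial interval 3.52% to 4.40%, which covers counting error only). They are overlaps of lists, and 256 of them rest on a single RWPE1 list.

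The ERG antibody (clone 9FY) was used in VCaP cells without treatment, in RWPE1 cells stably expressing wild-type ERG (2 replicates) and in RWPE1 cells stably expressing ERG P436A, a point mutant. The EWS antibody (clone G5) was used once in each of the 3 kinds of cells. The RWPE1 cells were grown under puromycin and hygromycin selection, and the ERG in them came from an introduced gene. The labels do not say whether the 2 replicates were separate cultures, whether the lines were clones, or which promoter drove ERG. The series also holds 3 input samples, not analysed here, and no list of RWPE1 cells lacking ERG was analysed here.

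ERG belongs to the ETS family of transcription factors, which recognise DNA with a GGAA core. In many prostate cancers a rearrangement places ERG under the control of the androgen-regulated TMPRSS2 promoter, and VCaP carries such a fusion, whereas normal prostate epithelium has little or no ERG. EWS, the product of EWSR1, is an RNA-binding protein of the FET family that is best known as the fusion partner of ETS factors in Ewing sarcoma, and the series treats it as a co-activator of ERG. The first line compared was thus a cancer line with its own rearranged ERG. The second was a line derived from normal prostate and given the protein. The question was which ERG positions the lines held in common, and whether EWS was found there.

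Every list gives positions only, with no height or score per peak, and the read depth is unknown. The RWPE1 ERG lists were shorter than that of VCaP, with 1901 peaks in replicate 1, 1953 in replicate 2 and 1746 with ERG P436A. For EWS the lists ran to 9500 peaks (VCaP), 5703 peaks (RWPE1, wild-type ERG) and 1786 peaks (RWPE1, P436A). Peaks over 2000 bp numbered 477 for VCaP ERG, against 11, 5 and 0 in the RWPE1 ERG lists, and ERG P436A peaks were at most 501 bp wide. Peaks of a list are not replicates of a condition, so shares are given with counting intervals and no p-value.

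Most sites of both lines were met by a single RWPE1 list. Replicate 1 had a peak at 163 of the 304 sites (2.11% of all VCaP ERG peaks), replicate 2 at 89 (1.15%) and ERG P436A at 115 (1.49%). Replicate 1 alone accounted for 121 sites (39.8%, 34.3% to 45.5%), ERG P436A alone for 73 (24.0%) and replicate 2 alone for 62 (20.4%). At least 2 lists met 48 sites (0.622% of all VCaP ERG peaks), and all 3 met 15 (0.195%). The pairs were uneven, with 21 sites in replicate 1 and P436A only, 6 in both replicates only and 6 in replicate 2 and P436A only. In total 73 sites were thus known from the mutant alone, and 42 of the 231 sites with a wild-type peak also had a mutant peak.

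These counts are what the rule fixes and are given as a description. Each VCaP peak met at most 1 peak of a given RWPE1 list, and each RWPE1 peak at most 1 VCaP peak. Peaks of different lists at a wide site could still lie apart: in the 7491 bp peak chr1:154971005-154978495, the replicate 1 peak (154976311 to 154976788) and the P436A peak (154971619 to 154972088) did not overlap, though the site counts as found in 2 lists. The number of sites leaned on replicate 1: without it 183 sites remained, against 242 without replicate 2 and 231 without ERG P436A. Sites in at least 2 lists numbered 21 without replicate 1, 36 without replicate 2 and 21 without P436A.

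**Figure D1:**
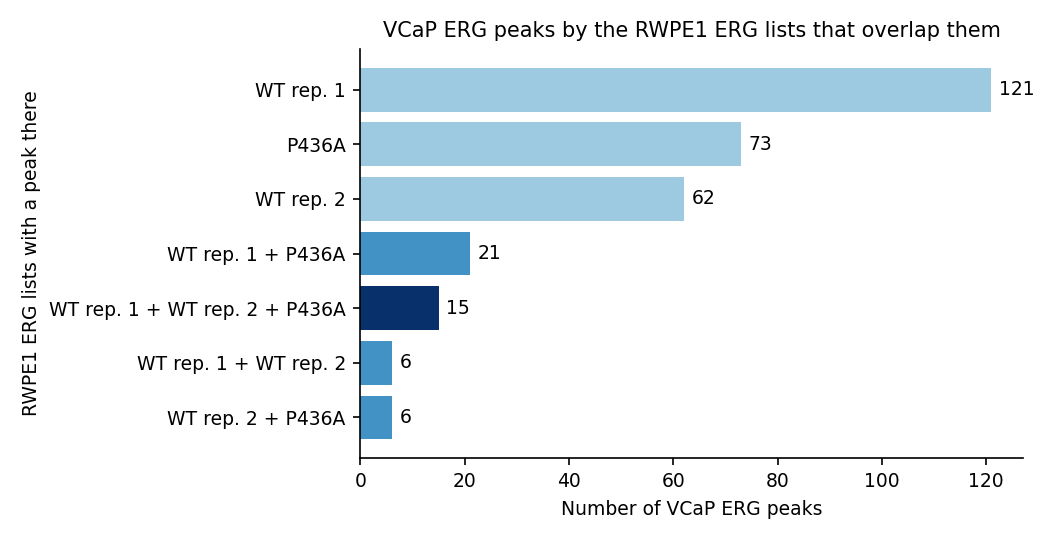
Number of VCaP ERG peaks (horizontal axis) for each combination of RWPE1 ERG lists with an overlapping peak (vertical axis; WT, wild-type; rep., replicate), shaded by the number of lists. The 3 bars of a single list, 121, 73 and 62, stand well above those of several lists, 6 to 21.

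The 15 sites found in all 4 ERG lists lay on 7 chromosomes, 3 each on chromosomes 5, 9 and 20, 2 each on 1 and 17, and 1 each on 8 and 12. At 13 of them a segment was common to all 4 peaks, and the median of this segment over the 15 sites was 420 bp. The tightest agreement was at chr5:150080077-150080957, an 881 bp VCaP peak. There the common segment was 499 bp, the whole of the P436A peak, and the centres of the RWPE1 peaks lay 42 bp (replicate 1), 22 bp (replicate 2) and 27 bp (P436A) from the VCaP centre.

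At other sites of this set some centres lay farther apart than others. At chr20:352305-353299 the replicate 1 peak, 352292 to 353300, had nearly the limits of the VCaP peak, with centres 6 bp apart. The replicate 2 centre was 1 bp away and the P436A centre 68.5 bp. At chr5:158689590-158690988 the distances were 14 bp, 170 bp and 78 bp, and the 4 peaks had 345 bp in common. At these sites the 4 peaks thus overlapped over most of the narrowest peak.

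Early in the VCaP list stood chr5:180648762-180651990, a 3229 bp peak at list position 9 and the widest of the 15. It was at position 103 of the replicate 1 list, position 27 of the replicate 2 list and position 8 of the P436A list. Its common segment of 485 bp, 180650442 to 180650926, was again the whole P436A peak. Sites that led the RWPE1 lists but not the VCaP list were seen too. At chr9:132096160-132096963, position 3138 in VCaP, the RWPE1 peaks stood at positions 19, 33 and 22, and the RWPE1 wild-type peaks (1250 bp and 1315 bp) were wider than the 804 bp VCaP peak.

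The sites at chr9:130213174-130214313, chr17:79818265-79819679 and chr20:61407873-61409018 had common segments of 472 bp, 456 bp and 494 bp. Those at chr1:40525011-40525775 and chr8:144363339-144364384 had 420 bp and 361 bp in common. At each of these the P436A peak lay at least in large part within both wild-type peaks. The peaks were shifted to the side at chr12:89745096-89746820, where the replicate 1 centre was 498.5 bp from that of VCaP, and at chr9:110912791-110913287, where all 3 RWPE1 peaks ran past the end of the 497 bp VCaP peak. The shortest common segment above 0, 108 bp, was at chr20:34638332-34639450.

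The remaining 2 sites held no segment common to all 4 peaks. At chr1:2186166-2188328, position 8 of the VCaP list, the replicate 2 peak (2187594 to 2188091) and the P436A peak (2187028 to 2187521) lay side by side within the VCaP peak and the 1596 bp replicate 1 peak. At chr17:41400277-41400942 the replicate 1 peak (41399610 to 41400479) ended before the P436A peak (41400635 to 41401134) began, while replicate 2 spanned both with 1953 bp. These 2 sites thus counted as shared by the rule without a position shared by every list. With a reciprocal overlap of 0.5, 5 of the 15 sites stayed above the limit in all 3 lists.

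**Figure D2:**
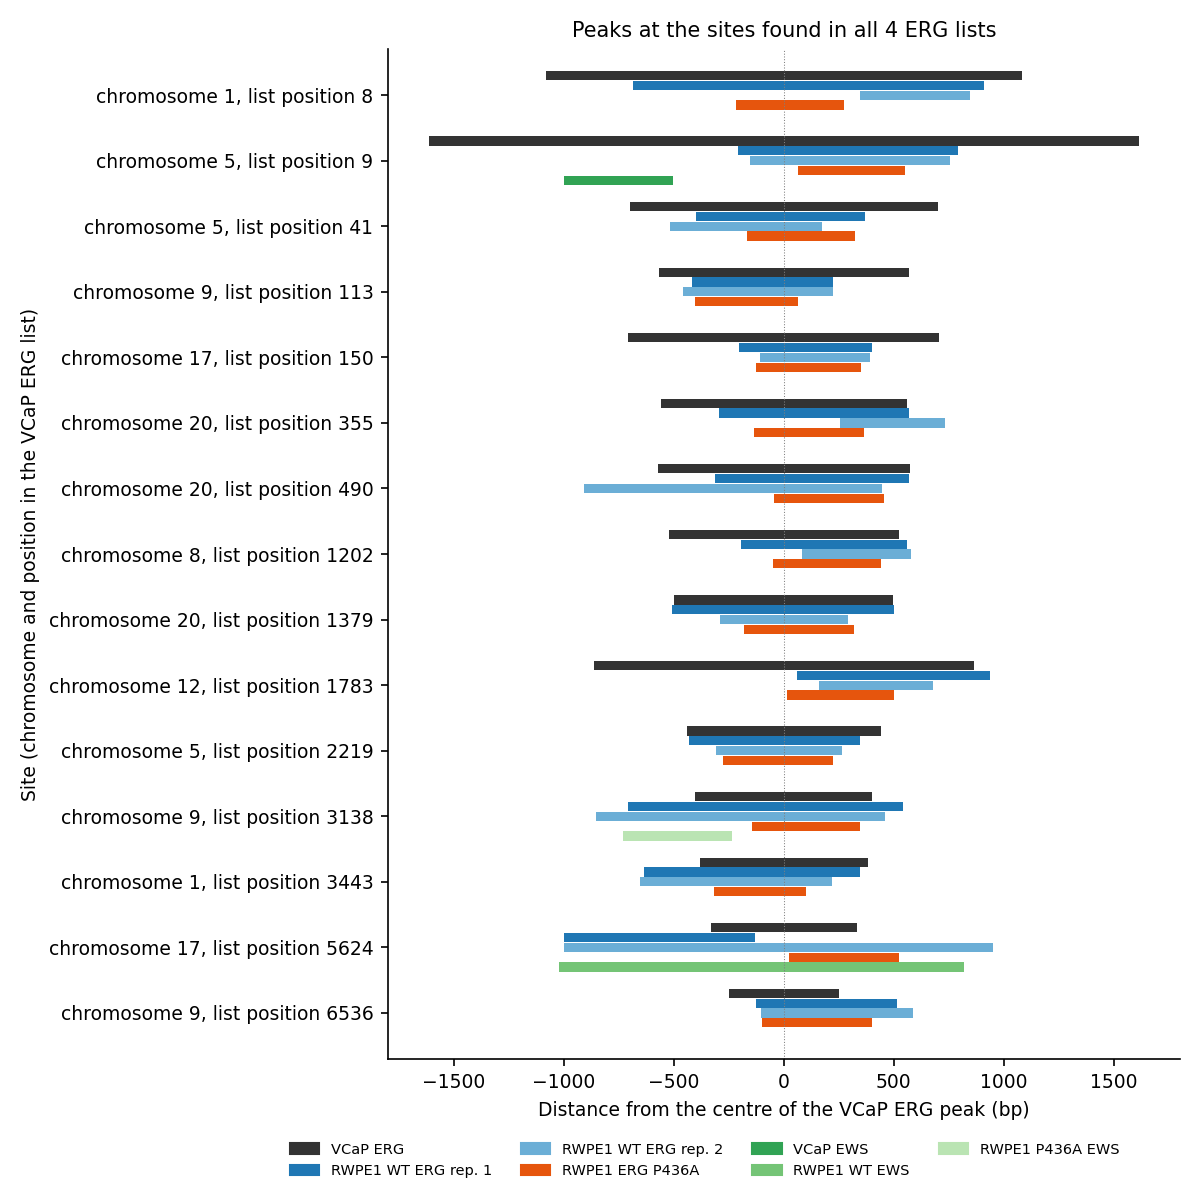
Extent of each peak at the 15 sites found in all 4 ERG lists, drawn to scale as distance from the centre of the VCaP ERG peak in bp (horizontal axis) for each site (vertical axis, in VCaP list order). Bars are peaks, coloured by list, with EWS peaks in green where present; at 13 sites a vertical line can be drawn through all 4 ERG peaks, and 3 sites have an EWS peak.

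The sites of both lines were wider than other VCaP ERG peaks and stood earlier in the list. Their widths ran from 448 bp to 32281 bp, with a median of 973.5 bp (917 to 1012) and quartiles of 703 bp and 1218.5 bp. The other 7408 VCaP ERG peaks had a median of 710 bp (699 to 721). The narrowest site was chr22:18879812-18880259 and the widest chr13:110940777-110973057. Medians were 955 bp at sites with 1 RWPE1 list (888 to 1008), 999 bp with 2 (938 to 1216) and 1119 bp with 3 (804 to 1415). These intervals overlapped, and a change with the number of lists was not tested. A wide peak is more easily overlapped, so this width is partly set by the rule.

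The share of peaks found again did not rise steadily with width. It was 1.14% among VCaP ERG peaks of 500 bp or less (16 of 1407), 3.29% from 501 to 1000 bp (149 of 4530) and 9.09% from 1001 to 2000 bp (118 of 1298). Among peaks over 2000 bp, which offer the most room for an overlap, it was 4.40% (21 of 477, 2.75% to 6.65%). The peaks of 1001 to 2000 bp thus had the highest share, with an interval (7.58% to 10.8%) apart from that of the widest peaks. Most peaks over 2000 bp lay in megabases with 10 or more VCaP ERG peaks, where 3026 of 3476 peaks were 2000 bp or less wide. In those megabases 2.59% of peaks were found again, against 5.05% elsewhere. Width was thus mixed with crowding, and the part of crowding in these shares was not tested.

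The share declined along the VCaP list. Of the first 771 peaks 87 were sites of both lines (11.3%, 9.14% to 13.7%), of the next 771 peaks 55 (7.13%), and of the last 772 peaks 12 (1.55%, 0.806% to 2.70%). In all, 239 of 304 sites (78.6%) stood among the first 3856 peaks, as did 30 of the 33 sites with 2 RWPE1 lists and 13 of the 15 with 3. The list order is not documented as a ranking, and width declines along it, from a median of 1372 bp in the first 771 peaks to 499 bp in the last 772. Among peaks of 501 to 1000 bp the share was 4.77% (3.90% to 5.76%) in the first 3856 positions and 1.99% (1.47% to 2.63%) in the rest. The decline was thus present within that class, but the class does not hold width constant. The part of width in the decline was not tested.

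The RWPE1 peaks at these sites also stood early in their own lists. Their median position was 35.0% of the replicate 1 list, 33% of replicate 2 and 35.0% of ERG P436A, against 51.8%, 50.8% and 51.1% for peaks away from VCaP ERG. In the wild-type lists they were wider, with medians of 673 bp against 598 bp in replicate 1 and 535 bp against 501 bp in replicate 2. In the P436A list, where no peak exceeded 501 bp, the medians were 489 bp and 491 bp, so widths could hardly differ.

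**Figure D3:**
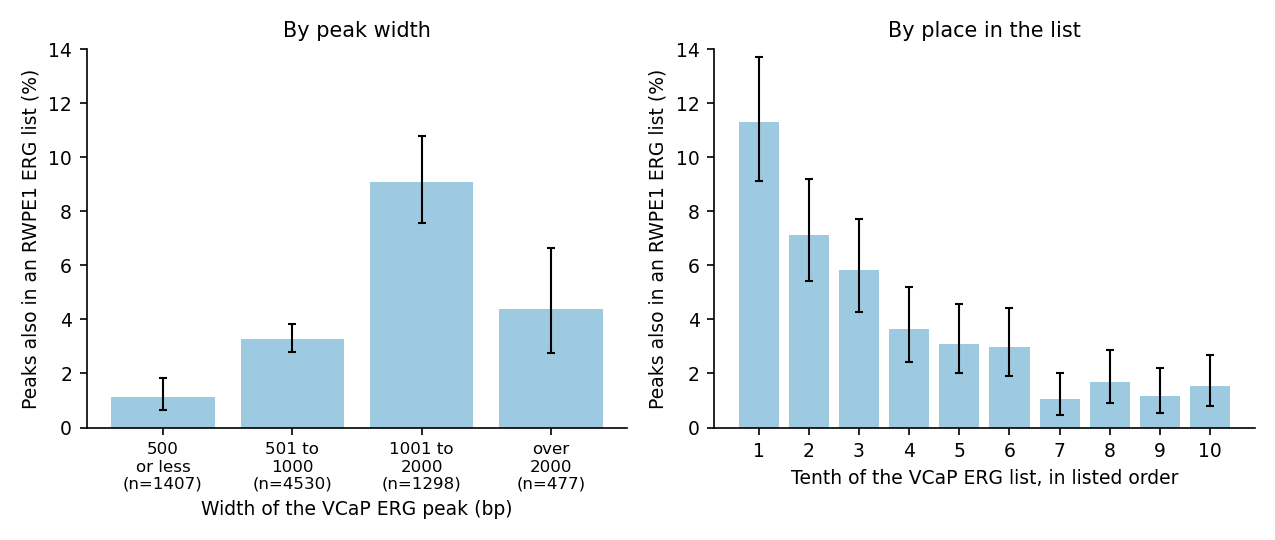
Share of VCaP ERG peaks that overlap an RWPE1 ERG peak, in percent (vertical axes), by peak width in bp (left) and along the VCaP list in listed order, cut into 10 equal stretches (right). Bars are shares and error bars exact 95% binomial intervals; the share is highest at 1001 to 2000 bp (9.09%) and in the first stretch (11.3%).

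Overlap by the rule limits the distance between centres, and the RWPE1 lists differ in peak width, so the distances only describe the pairs chosen. For replicate 1 the median distance to the VCaP centre was 87.0 bp, and 88 of 163 pairs (54.0%) were within 100 bp. For ERG P436A the median was 171.5 bp with 36 of 115 pairs (31.3%) within 100 bp, and for replicate 2 it was 222 bp with 20 of 89 (22.5%). At the 21 sites with both replicates, the replicate 1 centre was nearer to that of VCaP at 15 and the replicate 2 centre at 6. At the 21 sites with replicate 2 and P436A, the P436A centre was nearer at 14 and the replicate 2 centre at 7.

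Peaks of 2 RWPE1 lists at a common site were drawn together by the rule, since both overlap the same VCaP peak. The replicates overlapped each other at 21 of 21 such sites, with a median of 113.5 bp between centres. Replicate 1 and P436A overlapped at 34 of 36 sites, with a median of 92.8 bp. The farthest pair of VCaP and RWPE1 centres, 15292 bp apart in replicate 1, lay in the widest site, so a pair inside such a peak need not mark a common position.

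The median of the largest overlap per site was 498 bp, and few sites depended on the exact limit. It was 50 bp or less at 4 sites, for example 6 bp at chr5:176153315-176153904 and 46 bp at chr5:176784373-176784882. Just outside, 4 VCaP ERG peaks had an RWPE1 ERG peak with a gap of 50 bp or less, among them chr11:66434626-66435546, which touched it with a gap of 0, and chr9:132646595-132647606, with a gap of 19 bp. A gap of up to 1000 bp was found for 86 of the 7408 other peaks.

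**Figure D4:**
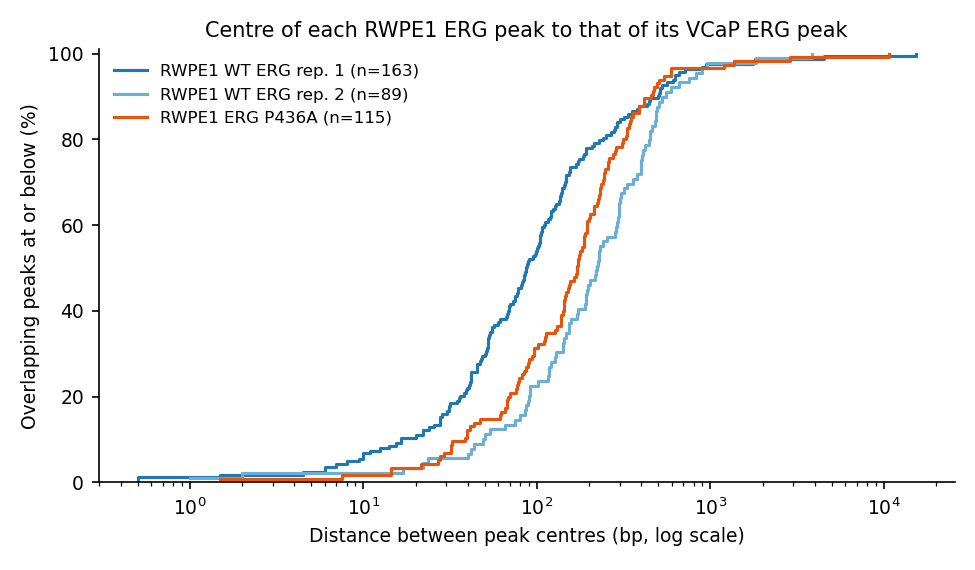
Cumulative percentage of overlapping peak pairs (vertical axis) by the distance between the centre of the RWPE1 ERG peak and that of the VCaP ERG peak, in bp on a log scale (horizontal axis), for each RWPE1 ERG list. The curve of replicate 1 (median 87.0 bp) lies to the left of those of ERG P436A (171.5 bp) and replicate 2 (222 bp).

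The sites lay in the crowded parts of the VCaP list less often than the other VCaP ERG peaks. The sites fell in 232 megabase bins, of which 180 held 1 site and 15 held 3 or more, with at most 5 in a bin. A single pair of sites lay within 10000 bp of each other. Megabases with 10 or more VCaP ERG peaks held 90 sites (29.6%) and 3386 of the other peaks (45.7%). There 2.59% of VCaP ERG peaks were sites of both lines (2.09% to 3.17%), against 5.05% elsewhere (4.41% to 5.75%).

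Chromosome 20 held the most sites. It carried 43 of the 304, or 13.7% of its 315 VCaP ERG peaks (10.1% to 17.9%). Chromosome 9 followed in share among chromosomes with over 20 sites, with 28 of 335 (8.36%, 5.63% to 11.9%). Chromosome 5 held 37 of 717 (5.16%), chromosome 1 22 of 460 (4.78%) and chromosome 19 21 of 375 (5.60%). The 3 RWPE1 ERG lists together had 744 peaks on chromosome 20, 706 each on 5 and 9, and 804 on 1, so these chromosomes also offered the most RWPE1 peaks. Chromosomes 1, 5, 9 and 20 held 42.8% of the sites, against 22.9% of the other VCaP ERG peaks. They held 62.5% of the sites in at least 2 lists (30 of 48) and 73.3% of those in all 3 (11 of 15). The whole RWPE1 ERG lists had 1901, 1953 and 1746 peaks, so these 4 chromosomes held a large part of them. The shares of sites have to be read against that, and its part in them was not tested.

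Chromosomes 11, 6 and 13 had low shares. On chromosome 11, 15 of 1050 VCaP ERG peaks (1.43%, 0.802% to 2.35%) were sites of both lines. Chromosome 6 had 7 of 597 (1.17%) and chromosome 13 had 7 of 458 (1.53%). The RWPE1 ERG lists together had 142, 160 and 63 peaks on these chromosomes. The chromosome 11 block from 63 to 68 Mb, with 704 VCaP ERG peaks, held 9 sites. The reverse case was chromosome 1 from 190 to 200 Mb, with 163 replicate 1 peaks, 6 replicate 2 peaks, 48 ERG P436A peaks and 0 VCaP ERG peaks. Chromosome 20 from 29 to 36 Mb, a block picked after its values were seen, had 12 sites among 40 VCaP ERG peaks (30.0%).

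RWPE1 ERG peaks at a VCaP ERG peak had higher shares found again in the other RWPE1 lists than the rest of their list. For this the sites were taken from VCaP and 1 RWPE1 list, and the other lists, which played no part in that choice, were read. Of replicate 1 peaks at a VCaP peak, 21 of 163 were also in replicate 2 (12.9%, 8.16% to 19%), against 94 of 1738 elsewhere (5.41%, 4.39% to 6.58%) and 6.05% over all its peaks. In the other direction, 21 of 89 replicate 2 peaks at a VCaP peak were in replicate 1 (23.6%, 15.2% to 33.8%), against 95 of 1864 elsewhere (5.10%, 4.14% to 6.19%) and 5.94% over all.

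The mutant list was read in the same way. ERG P436A peaks were present at 35 of 163 replicate 1 peaks that had a VCaP peak (21.5%, 15.4% to 28.6%), against 10.7% elsewhere (9.29% to 12.3%) and 11.6% over all. For replicate 2 the shares were 23.6% (21 of 89, 15.2% to 33.8%) against 6.01% (4.97% to 7.19%), with 6.81% over all. Read from the mutant, 34 of 115 P436A peaks at a VCaP peak were in replicate 1 (29.6%, 21.4% to 38.8%), against 11.5% elsewhere (9.96% to 13.1%) and 12.7% over all. In replicate 2 they were 20 of 115 (17.4%, 11% to 25.6%), against 6.93% (5.74% to 8.27%) and 7.62% over all. In each of these 6 readings the intervals did not overlap, but the readings are not independent, since they use the same 3 lists.

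Crowded RWPE1 megabases moved these shares without turning them. Bins with 10 or more peaks of the 3 RWPE1 ERG lists held 26.4% of replicate 1 peaks at a VCaP peak and 30.2% of those elsewhere. For replicate 2 these were 37.1% and 36.3%, and for ERG P436A 35.7% and 39.7%. Outside these bins the share of replicate 1 peaks found in replicate 2 was 10.0% at a VCaP peak (5.27% to 16.8%) and 4.70% elsewhere (3.58% to 6.05%), with intervals that overlapped. Replicate 1 peaks found with P436A were 15% (9.14% to 22.7%) against 8.33% (6.83% to 10.0%), which overlapped too. In the other 4 readings the intervals stayed apart. Replicate 2 peaks found with P436A were 17.9% (8.91% to 30.4%) against 3.29% (2.35% to 4.46%), and those found in replicate 1 were 21.4% (11.6% to 34.4%) against 4.80% (3.66% to 6.18%). P436A peaks found in replicate 1 were 24.3% (15.1% to 35.7%) against 10.3% (8.45% to 12.3%), and in replicate 2 13.5% (6.68% to 23.5%) against 3.97% (2.84% to 5.38%). List position moved with the shares in all 3 lists, and width in the 2 wild-type lists, as given above, and their part was not tested.

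**Figure D5:**
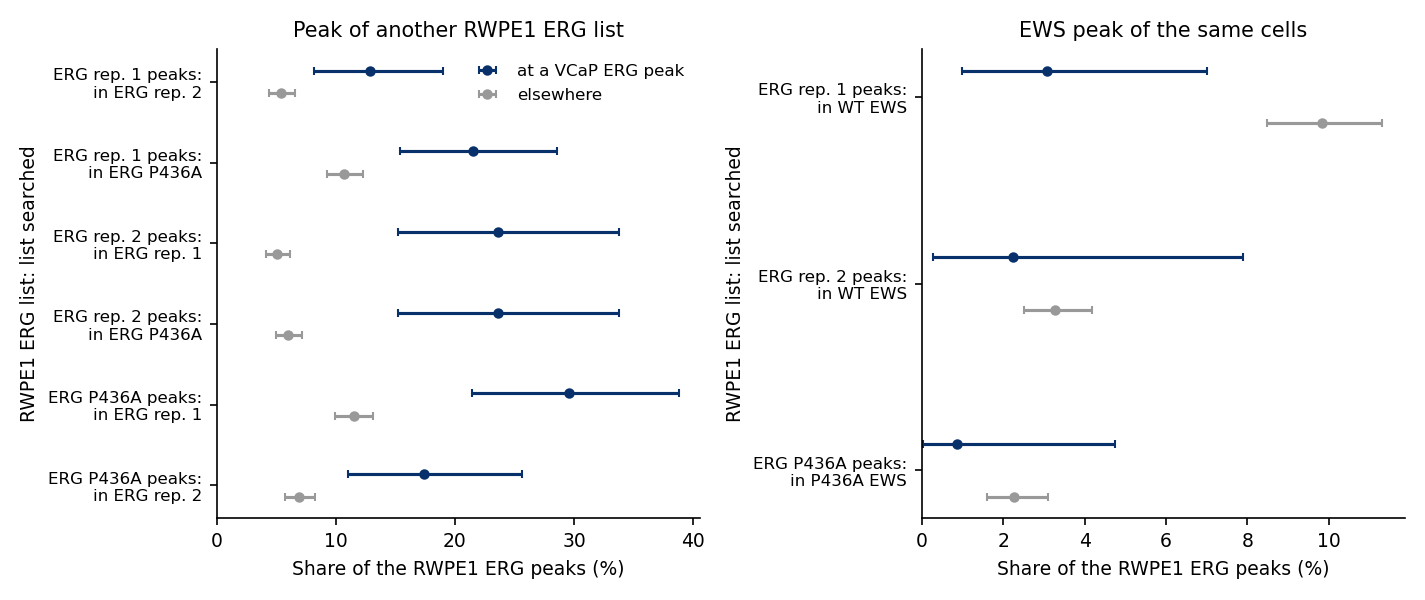
Share of RWPE1 ERG peaks, in percent (horizontal axes), that overlap a peak of another RWPE1 ERG list (left) or an EWS peak of the same cells (right), for peaks at a VCaP ERG peak (dark) and elsewhere (grey), for each list and list searched (vertical axes). Points are shares and bars exact 95% binomial intervals; all 6 dark points on the left lie above their grey points, and on the right the intervals are apart for replicate 1, at 3.07% and 9.84%, and overlap for replicate 2 and P436A.

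EWS peaks were scarce at the sites of both lines. An EWS peak of any list lay at 24 of the 304 sites (7.89%, 5.12% to 11.5%), against 11.7% of all VCaP ERG peaks, and 2 sites had EWS peaks of 2 lists. VCaP EWS lay at 15 sites (4.93%, 2.79% to 8.01%), against 858 of the other 7408 peaks (11.6%, 10.9% to 12.3%) and 11.3% over all. RWPE1 EWS with wild-type ERG lay at 9 sites (2.96%, 1.36% to 5.55%), against 22 of the others (0.297%) and 0.402% over all. RWPE1 EWS with P436A lay at 2 sites (0.658%, 0.0798% to 2.36%), against 10 of the others (0.135%) and 0.156% over all.

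The VCaP EWS peaks at these sites lay mostly in the widest ERG peaks and in crowded blocks. Of the 15 sites, 12 were over 2000 bp wide, 6 were on chromosome 11 and 5 on chromosome 13. Among VCaP ERG peaks over 2000 bp the share with VCaP EWS was 57.1% at sites of both lines (12 of 21, 34.0% to 78.2%) and 56.8% at the others (259 of 456). Among peaks of 2000 bp or less it was 1.06% (3 of 283, 0.219% to 3.07%) and 8.62% (599 of 6952, 7.97% to 9.30%). Within these, the share was lower at sites of both lines from 501 to 1000 bp (0.671% against 7.37%) and from 1001 to 2000 bp (0.847% against 15.5%). At 500 bp or less it was 6.25% (1 of 16, 0.158% to 30.2%) against 6.69%. Megabases with few VCaP ERG peaks gave 0.467% (1 of 214) and 1.42% (57 of 4022), with intervals that overlapped. Within crowded megabases and at 2000 bp or less the shares were 2.78% (2 of 72, 0.338% to 9.68%) and 18.4% (545 of 2954, 17.1% to 19.9%).

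A VCaP EWS peak touched an RWPE1 ERG peak at 5 of the 12 sites over 2000 bp. In the 32281 bp site on chromosome 13 the VCaP EWS centre was 8311 bp and the RWPE1 EWS centre 24760 bp from the replicate 1 ERG centre. At chr11:65184733-65191689, a 6957 bp peak at position 14 of the VCaP list with ERG in both RWPE1 replicates, there were 2 VCaP EWS peaks. The EWS peak 65186214 to 65186708 was centred 19.5 bp from the nearest RWPE1 ERG centre. The other, 65190407 to 65190901, lay over nearly the same bases as the RWPE1 wild-type EWS peak, 65190372 to 65190860. An EWS peak also touched the RWPE1 ERG peak at chr11:63741361-63744233, chr11:63330539-63333026, chr11:65082227-65085396 and chr13:110205074-110209824. None did so at chr15:75930315-75933245, chr11:64012084-64023195, chr13:110076987-110093918, chr13:110479952-110501989 and chr13:112118397-112142337, where the nearest centres were 761.5 bp to 9865.5 bp apart.

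The 3 narrower sites with VCaP EWS were chr11:64781064-64782259, chr9:112322741-112323234 and chr4:52944-53461. At the last 2, the EWS peak touched the RWPE1 ERG peak, with centres 251 bp and 69.0 bp apart. Of the 15 sites in all 4 ERG lists, 1 had VCaP EWS, the wide peak chr5:180648762-180651990, where EWS was centred 1042 bp from the nearest RWPE1 ERG centre.

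RWPE1 EWS peaks, where present, mostly lay close to the RWPE1 ERG peaks. Both overlap the same VCaP peak, so at a narrow site their centres cannot lie far apart. With wild-type ERG the EWS peak touched an RWPE1 ERG peak at 7 of 9 sites. Over all 9 sites the median distance to the nearest RWPE1 ERG centre was 60.5 bp. At the 2 sites over 2000 bp the EWS peak touched no RWPE1 ERG peak, and the nearest centres were 4174.5 bp and 24760 bp apart. The centres were 3 bp apart at chr22:18879812-18880259, 4.50 bp at chr2:89852715-89853616 and 5 bp at chr5:74062585-74063583. At 3 of the 9 sites, on chromosomes 22, 9 (44070380 to 44071113) and 2, the EWS and ERG peaks ended at the same base. On chromosomes 9 and 2 these peaks stood at positions 2 and 3 of the replicate 1 list, and 2 and 5 of the EWS list. Whether repeated or duplicated sequence lies at these sites was not examined, since no hg19 annotation was used. The other sites with a wild-type EWS peak included chr20:42478048-42478950, chr17:41400277-41400942 and chr10:101155607-101156159. At the last of these the only RWPE1 ERG peak was that of P436A, from other cells than the EWS peak. With P436A both EWS peaks touched 2 RWPE1 ERG peaks. At chr1:204380349-204381303 these were the replicate 2 and P436A peaks. At chr9:132096160-132096963 they were the wild-type peaks of other cells. There the EWS peak ended at 132096327, before the P436A ERG peak began at 132096417.

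By the rule each site has an RWPE1 ERG peak, so the RWPE1 EWS shares have to be read against RWPE1 ERG peaks away from VCaP sites. Of replicate 1 peaks, 5 of 163 at a VCaP ERG peak overlapped EWS of the same cells (3.07%, 1.00% to 7.01%), against 171 of 1738 elsewhere (9.84%, 8.48% to 11.3%) and 9.26% over all. Outside crowded RWPE1 megabases these were 3.33% (0.916% to 8.31%) and 7.50% (6.08% to 9.13%), with intervals that overlapped. For replicate 2 the shares were 2.25% (2 of 89, 0.273% to 7.88%) and 3.27% (2.51% to 4.18%), with 3.23% over all. For ERG P436A with EWS of its own cells they were 0.870% (1 of 115, 0.0220% to 4.75%) and 2.27% (1.60% to 3.11%), with 2.18% over all. For replicate 2 and P436A the intervals overlapped, with few peaks at VCaP sites, and a difference was not tested.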

How the data were processed

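Peak lists of 7 ChIP samples were used: VCaP ERG, RWPE1 wild-type ERG (2 replicates), RWPE1 ERG P436A and 3 EWS lists. Samples were grouped by their titles. The members and the sets compared were chosen with earlier results of these data known. Reads were aligned with Bowtie2, version given as 0.12.8, to hg19 (per the submitters' processing notes). For peak calling, the program, threshold and control are not given here by any label or header. The deposited files hold 3 columns (chromosome, start, end), so the unit is other than a signal: positions in bp. Starts were read as 0-based and are printed 1-based. Read depth is unknown.

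Overlap needed at least 1 bp. Shares carry exact (Clopper-Pearson) 95% intervals, and medians binomial order-statistic intervals; both cover counting error only. Overlap counting was tested on simulated lists. Regions eligible to be named were those in all 3 RWPE1 ERG lists, those with an EWS peak (first 20 in list order), the first 5 sites, and the widest and narrowest, of which the text describes a selection; other named regions (chr1:154971005-154978495, chr4:52944-53461, chr9:112322741-112323234, chr10:101155607-101156159, and those at the overlap limit) were picked with their values in view. The reference tables are of another assembly than hg19, so the planned annotation and motif counts were not run. Alternatives changed the overlap, widths, chromosomes, list length, replicates and crowded megabases. Python 3.11.15, NumPy 2.4.6, SciPy 1.17.1 and matplotlib 3.10.9 were used.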

Additional observations from a re-analysis of the deposited data

Results flagged for a closer look

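The share of sites with an EWS peak differed from that of the other VCaP ERG peaks in opposite directions for the 2 cell lines. For EWS of VCaP it was 4.93% at the sites of both lines and 11.6% at the others, a difference of -6.65 percentage points. For EWS of RWPE1 with wild-type ERG it was 2.96% and 0.297%, a difference of 2.66 points, and with P436A 0.658% and 0.135%, a difference of 0.523 points. The difference between the lines was not tested. Each site has an RWPE1 ERG peak by the rule and the other VCaP ERG peaks have none, and RWPE1 EWS of the same cells lay at 9.26% of replicate 1, 3.23% of replicate 2 and 2.18% of ERG P436A peaks.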

How the results depend on the processing

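Of 98 alternative values of 10 results, 74 stayed within 1.5 times the count or within the interval of the share or median, and 24 moved further. With a reciprocal overlap of 0.5 there were 169 sites, 20 in at least 2 lists and 5 in all 3, with a median width of 843 bp. With the first 50% of each list these were 169, 30, 8 and 1046 bp, as fewer peaks entered. Leaving out 1 wild-type replicate gave 183 to 242 sites and 21 to 36 in at least 2 lists; leaving out the P436A list gave 21 of the latter. Outside megabases crowded with VCaP ERG peaks 8 sites were in all 3 lists; outside those crowded with RWPE1 ERG peaks, an alternative chosen after seeing the data, 9 were in all 3 and 25 in at least 2. The share of sites with VCaP EWS was 0% with reciprocal overlap (0 of 169), 0.727% with centres within 500 bp and with peaks set to 500 bp, 1.06% without ERG peaks over 2000 bp and 0.467% outside crowded VCaP megabases. It was below that of the other VCaP ERG peaks in all 12 settings, the reported one included. The share with P436A EWS was 0% with the first 50% of each list and outside crowded RWPE1 megabases, and above that of the others in the other 10 settings. For RWPE1 peaks at a VCaP peak, a result added after the lists were seen, reciprocal overlap gave 14.5% of replicate 1 and 13.2% of replicate 2 peaks found with P436A, and replicate 1 gave 15% outside crowded RWPE1 megabases. The share exceeded that elsewhere in 27 of 27 values, the reported ones included. These values reuse the same lists and overlaps, so they are not independent of each other. The cause of these changes was not tested. No paired analysis was possible because only wild-type ERG in RWPE1 has replicates among the lists used. Depth is unknown, so a site missing from an RWPE1 list need not lack ERG.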
